A study of Saccharomyces cerevisiae with 28 samples.

Results

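The 35S promoter and the Reb1 site in *IGS2* were taken as the 288 bases of chromosome XII from 458433 to 458720 (sacCer3), 288 of the 2001 bases for which read depth was deposited. The stretch was chosen by position and not by its depth. It starts at the first base of the spacer NTS2-1 (458433 to 459675), next to the start of the 35S gene RDN37-1 (451575 to 458432, minus strand), and ends with the Reb1 footprint. It is intergenic and lies left of the rDNA origin of replication (ARS1200-1, 458991 to 459097). Because the 35S gene is read leftward, bases upstream of it have rising coordinates, and distances are given upstream of its start.

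The study asked how Sir2, a histone deacetylase that silences the rDNA, affects the Mcm2-7 helicase at the rDNA origin. The stretch is described in 6 MNase-seq libraries and 7 Mcm2-ChEC libraries, with 8 libraries of sonicated DNA as the background without nuclease. The latter came from cells sorted by flow into G1 or S phase, of *SIR2* and *sir2* strains with the alleles of the expanded-rDNA set given below but no listed MCM2 fusion, and 4 of the 8 carried a *CYC1* terminator near the origin, so they share neither strain nor reference with MNase-seq and the FOB1 strains. In MNase-seq, added micrococcal nuclease digests exposed DNA in crosslinked nuclei and spares what proteins cover. In ChEC, the nuclease is fused to Mcm2, a subunit of the helicase, and calcium lets it cut DNA near that subunit in permeabilized cells.

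The MNase-seq strains were WT (MATa *his3 leu2 met15 ura3*, with *hmlα* replaced by HygR), the same with *sir2*Δ::KanMx, and *cdc6-1*, a temperature-sensitive allele marked with KanMx in a strain for which no *hml* deletion is listed. Cdc6 loads Mcm2-7 onto origins. WT and *sir2* cells were held in G1 with alpha factor or in G2 with nocodazole. The *cdc6-1* cells passed from nocodazole into alpha factor at 23° or 37°, and were held longer in alpha factor at 23°. The first set of ChEC strains (called FOB1 strains here) carried *hmlα*::HygR and MCM2-3xFLAG-MNase-KanMx, without or with *sir2*Δ::LEU2. The second set carried the same MCM2 fusion, *fob1*Δ::HIS3, an expanded rDNA array and a HygR-marked deletion listed for the right arm of chromosome XII, in a background other than S288C that carries *trp1-1*, *ade2-1*, *his3-11*, *ura3-1* and mutant alleles of *leu2* and *can1*. Its *sir2* strain also carried *sir2*Δ::LEU2 and *hmlα*Δ::NAT. All ChEC cells were in G1 (alpha factor) and were treated with digitonin and calcium, and in each genotype all libraries came from 1 strain. MNase-seq has 1 library per condition, so none of its differences has a replicate check. ChEC has 2 WT libraries and 1 *sir2* library of FOB1 strains, and 2 libraries of each genotype with expanded rDNA, whose names carry calcium times of 30 s and 60 s. In the study's methods the calcium times are samples of 1 permeabilized culture, so the 30 s and 60 s libraries of a genotype may share a culture, and no source used here says that the 2 WT libraries came from separate cultures. The spread between libraries of 1 strain may therefore be technical. The smaller WT library has 1m in its name and a tag, o5mMCu, that the labels do not explain, and those of the larger WT and the *sir2* library carry 5mAF, so the 2 WT libraries may differ in treatment.

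RNA polymerase I transcribes the 35S gene, the precursor of the large ribosomal RNAs. Its promoter has a core element next to the start, bound by core factor, and an upstream element bound by the upstream activating factor, which together with the TATA-binding protein and Rrn3 recruit the polymerase. Reb1 is a Myb-type DNA-binding protein that keeps DNA around its sites free of nucleosomes and also takes part in termination by RNA polymerase I. The spacer to its right is silenced by Sir2 and holds the c-pro promoter of RNA polymerase II.

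The elements are shown as printed in RefSeq (R64, plus strand of chromosome XII), since the depths below are given for each of them. The core element (chrXII:458433-458460) covers the 28 bases next to the start, the upstream element (chrXII:458483-458578) 96 bases that begin 51 upstream, and the Reb1 footprint (chrXII:458591-458720) the bases 159 to 288 upstream. A stretch of 22 bases (chrXII:458461-458482) and a gap of 12 bases (chrXII:458579-458590) lie between them. Capitals mark the Reb1 core motif, and all other bases are in lower case.
Core element: gaagtacctcccaactacttttcctcac
Between the elements: acttgtactccatgactaaacc
Upstream element: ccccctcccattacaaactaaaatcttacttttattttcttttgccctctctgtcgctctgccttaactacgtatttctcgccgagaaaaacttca
Gap: atttaagctatt
Reb1 footprint: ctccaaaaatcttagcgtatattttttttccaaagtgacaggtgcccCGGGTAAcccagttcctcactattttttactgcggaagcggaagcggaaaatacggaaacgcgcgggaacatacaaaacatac

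The motif searched was TTACCCG, on both strands. Its reverse complement stands once on the plus strand, at chrXII:458638-458644, 206 to 212 bases upstream of the 35S start, and there is no other match in the 2001 bases. Of 41907 windows of 288 bases tiled over the reference, 1.79% held a match on either strand. The GC content was 46.4% in the core element, 40.9% between the elements, 40.6% in the upstream element, 16.7% in the gap and 44.6% in the Reb1 footprint. The reference holds an identical copy of the whole stretch (chrXII:467570-467857), and how reads that fit both copies were placed is not given in the sources used here. The study's primers for rDNA copy number match the footprint exactly and enclose 77 bases, chrXII:458637-458713, which start 1 base left of the motif.

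Levels are relative depths, the mean depth of a window divided by the mean depth over all 2001 bases of the same library, so that 1 is an even spread. The libraries held 759788 to 2233018 reads in the interval for MNase-seq, 689392 to 5022993 for ChEC and 24177 to 107179 for sonicated DNA, where reads are the summed depth over the read length of 50. Over the 5 windows, the sonicated libraries stayed between 0.896 and 1.07. The stretch as a whole took 15.0% to 21.3% of the depth in MNase-seq, 5.32% to 11.1% in ChEC and 13.5% to 15.1% in sonicated DNA. Intervals below are 95% log-normal intervals and cover counting error only. They count each read as independent although the reads are paired, so they may be too narrow.

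**Figure D1:**
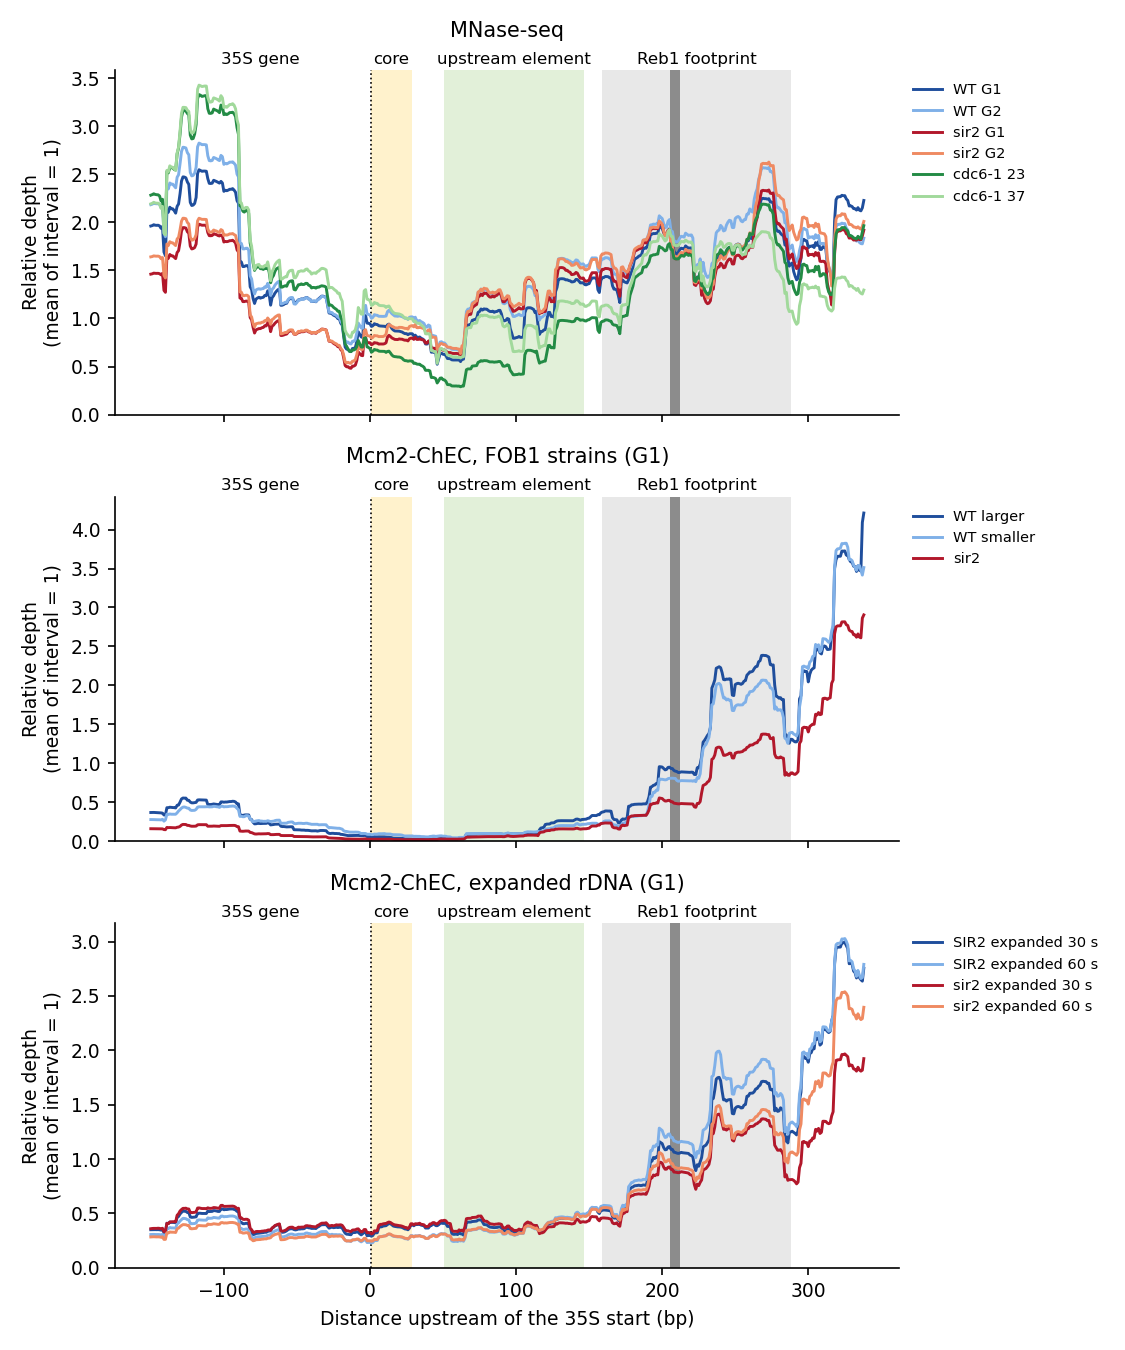
Relative depth (1 = mean of the interval) at each base against the distance upstream of the 35S start, for MNase-seq, ChEC of FOB1 strains and ChEC of strains with expanded rDNA, 1 line per library. Shading marks the core element, the upstream element and the Reb1 footprint, the dark band marks the motif, and the vertical scale differs between panels. MNase-seq lines dip between the elements and rise stepwise from there to the footprint, and ChEC lines stay low over the promoter and climb within the footprint.

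The MNase-seq profile fell from the core element to the bases between the elements in all 6 libraries and climbed in steps from there to the Reb1 footprint. The lowest base lay between the elements, at 458478, or near the start of the upstream element, at 458494, in all 6 libraries, and the highest lay in the footprint, at 458701 or 458705 in 5 of them and at 458637 in *cdc6-1* at 37°. The core element stood at 0.893 in WT in G1, 1.03 in WT in G2, 0.769 in *sir2* in G1, 0.872 in *sir2* in G2, 0.622 in *cdc6-1* at 23° and 1.08 in *cdc6-1* at 37°. It was lower than the first 433 bases of the 35S gene in all 6 libraries, at 0.331 to 0.718 times their level. The upstream element stood at 1.01, 1.19, 1.17, 1.22, 0.600 and 0.900 in the same order of libraries, and *cdc6-1* at 23° was the lowest library here as it was in the other windows. The upstream element was higher than the core element in WT and *sir2*, and lower in both *cdc6-1* libraries.

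Within the upstream element the depth was not even. It stepped up at 458538 and at 458559 in all 6 libraries, by 0.199 to 0.260 and by 0.186 to 0.292 of the mean depth in a single base. The lowest base of the element was 458494 in all 6 libraries and the highest lay between 458563 and 458574, so the end away from the 35S start was the deeper one. Single-base steps of this kind mark fragment ends shared by many reads, and depth does not tell which of a fragment's ends a read came from.

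The Reb1 footprint was the highest of the 5 windows in each MNase-seq library. The paper tells footprints of DNA-binding factors from nucleosomes by fragment length. Depth does not give that length, so cover by Reb1 and by nucleosomes cannot be told apart in this window. The footprint window stood at 1.70 in WT in G1, 1.88 in WT in G2, 1.70 in *sir2* in G1, 1.80 in *sir2* in G2, 1.57 in *cdc6-1* at 23° and 1.59 in *cdc6-1* at 37°. It also varied least, with a highest level 1.20 times the lowest, against 1.62 for the gap, 1.74 for the core element, 1.97 between the elements and 2.03 for the upstream element. The footprint was 1.47 to 2.53 times as high as the core element and 1.10 to 2.08 times as high as the 270 bases between it and the origin. The start of the 35S gene, which is not among the 5 windows, was lower than the footprint in WT and *sir2*. It stood there at 1.57 (G1) and 1.68 (G2) in WT and at 1.16 (G1) and 1.22 (G2) in *sir2*. In *cdc6-1* it was higher than the footprint, at 1.88 at 23° and 1.99 at 37°. The spread of the footprint stayed the smallest of the 5 windows under every scaling tried, at 1.18 to 1.29.

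The strongest pair of steps in MNase-seq that lay a read length apart, a rise at 458604 and a fall at 458654, framed the motif. The depth rose by 0.166 to 0.228 and fell by 0.237 to 0.311 of its mean over the 6 libraries. The 50 bases between these steps, 458604 to 458653, hold the whole motif. The next pair framed 458668 to 458717, near the right end of the footprint. Between these 2 blocks the depth dipped, and in both *sir2* libraries the lowest base of the footprint was there, at 458663, while in the other 4 it was at 458603. In both assays pairs were searched only at the read length, so an edge may be where reads stop and not a fragment end. Depth covers only the sequenced ends of fragments, so a dip inside a longer fragment is not by itself a loss of cover.

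**Figure D2:**
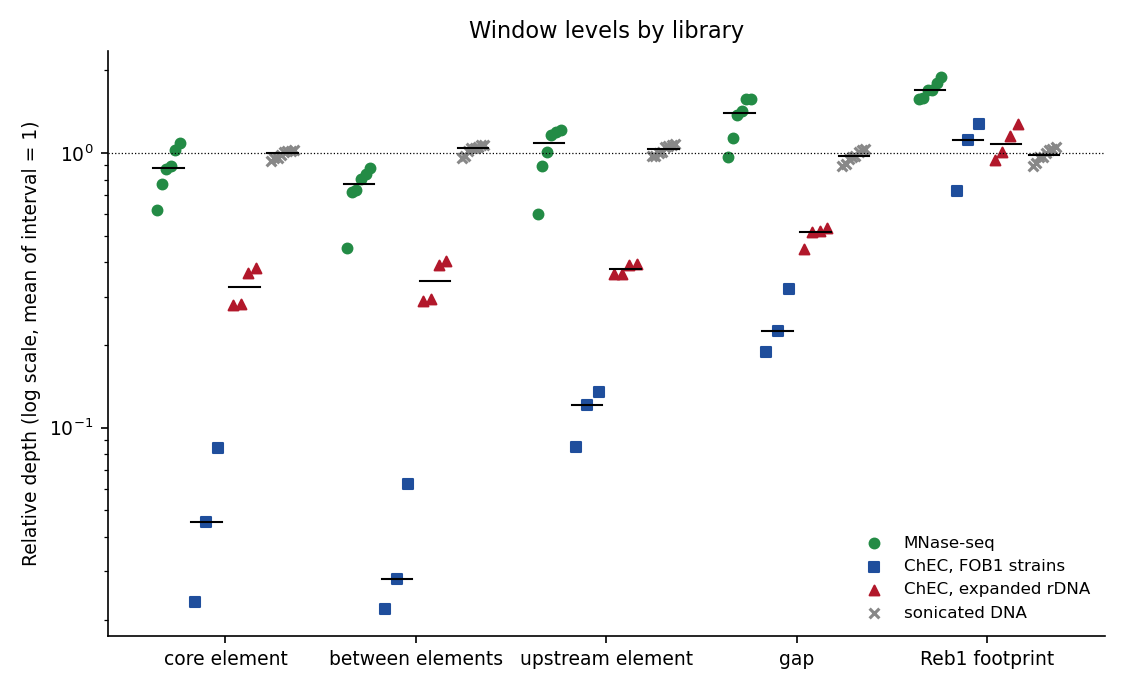
Relative depth of the 5 windows (log axis) in each library, with 1 point per library and a black line at the median of each set. The MNase-seq points lie above all ChEC points in every window, FOB1 ChEC lies below expanded-rDNA ChEC in all windows but the Reb1 footprint, and sonicated DNA stays near 1.

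In ChEC the promoter gave few reads, and the depth climbed inside the Reb1 footprint towards the origin. In the FOB1 strains the core element stood at 0.0454 in the larger WT library, 0.0844 in the smaller and 0.0231 in *sir2*. The upstream element stood at 0.135, 0.121 and 0.0850, and the Reb1 footprint at 1.27, 1.11 and 0.730. The footprint was thus 27.99, 13.2 and 31.6 times as high as the core element. Sonicated DNA gave 0.936 to 1.02 in the core element.

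In the strains with expanded rDNA the core element stood at 0.367 (30 s) and 0.279 (60 s) with *SIR2* and at 0.383 and 0.283 in *sir2*. The upstream element stood at 0.392 and 0.362 with *SIR2* and at 0.396 and 0.362 in *sir2*. The Reb1 footprint stood at 1.15 and 1.28 with *SIR2* and at 0.942 and 1.01 in *sir2*. In this set the core element was level with the start of the 35S gene, at 1.01 to 1.12 times its depth, while in the FOB1 strains it was at 0.191 to 0.368.

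The 2 strain sets differed in the promoter windows and overlapped in the footprint. The mean of the expanded set (n = 4) was 6.43 times that of the FOB1 set (n = 3) in the core element, 9.22 times between the elements, 3.33 times in the upstream element and 2.07 times in the gap, and in none of these did the libraries overlap. In the Reb1 footprint it was 1.06 times, at 1.10 ± 0.150 (SD, n = 4) against 1.04 ± 0.278 (SD, n = 3), with overlap. By base, 200 of the 288 were higher in every expanded library than in every FOB1 library, against 36.4% over all 2001 bases. They included all 158 bases left of the footprint and 42 of the 130 within it, and 0 bases were lower without overlap (8.05% over all bases). Under other scalings the fold stayed at 5.23 to 12.5 in the core element, 7.44 to 27.9 between the elements, 2.59 to 4.18 in the upstream element and 1.69 to 2.25 in the gap, and at 0.864 to 1.08 in the footprint. The gap of the sets overlapped in 1 of these settings, with the interval ended early and the lowest depth subtracted (0.274 in both the lowest expanded and the highest FOB1 library). The folds of 12.5 and 27.9 came with the lowest depth subtracted. In the larger WT and the *sir2* library of the FOB1 strains the lowest base was 458470, between the elements. Subtraction thus takes that window to the floor by construction (0.00293 in the lowest library). With the total outside the stretch the folds were 6.58 and 9.45. Strain background, *fob1* deletion, rDNA array and reference differ together between these 7 libraries and were not separated, since the ChEC libraries of *fob1* strains without the expanded array were not used here. The difference has no test.

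The footprint was divided by its motif into 47 bases on the left and 76 on the right, a division chosen after the profiles were seen. In MNase-seq the right side was 1.03 to 1.28 times as deep as the left, close to the 1.00 to 1.09 of sonicated DNA. In ChEC it was 3.35, 3.84 and 2.95 times as deep in the larger WT, smaller WT and *sir2* libraries of the FOB1 strains, and 1.67 to 1.92 times as deep with expanded rDNA. The assays did not overlap. Changing the total leaves this ratio as it is, and with the lowest depth subtracted it was 1.03 to 1.31 in MNase-seq, 3.07 to 4.10 in the FOB1 strains and 1.67 to 1.92 with expanded rDNA. With the interval also ended early it was 1.03 to 1.31, 3.07 to 4.18 and 1.90 to 2.18 in the same order. The strongest pair of steps 1 read length apart in ChEC framed 458666 to 458715, right of the motif, with a rise of 0.211 to 0.508 in 7 of 7 libraries. In the FOB1 strains the highest base was 458701, and in the expanded set it was 458671.

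**Figure D3:**
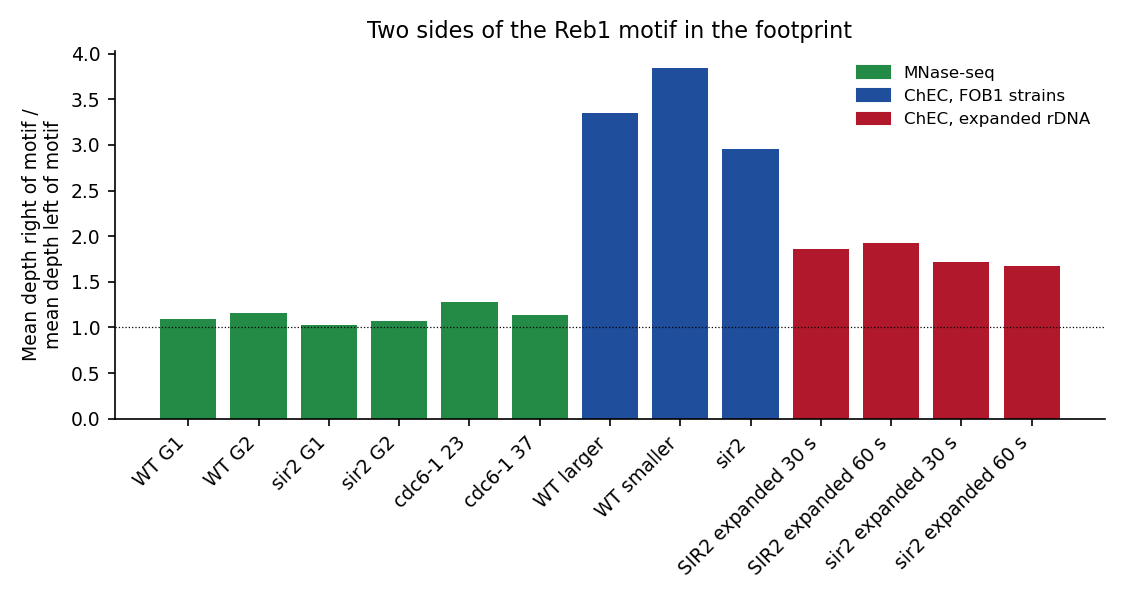
Mean depth of the footprint right of the Reb1 motif divided by the mean depth left of it (vertical axis, no unit), 1 bar per library, with a dotted line at 1. MNase-seq bars end between 1.03 and 1.28, FOB1 ChEC bars between 2.95 and 3.84 and expanded-rDNA bars between 1.67 and 1.92.

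Across the 288 bases the shape of the profile was much alike within an assay. Pearson's r between libraries was 0.790 to 0.992 (median 0.960) over the 15 MNase-seq pairs, 0.969 to 0.998 over the 21 ChEC pairs and 0.681 to 0.945 over the 42 pairs of different assays. These values are a description, since neighbouring bases share reads and all libraries share the same sequence.

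The relative depth of the whole stretch was 1.31 ± 0.156 (SD, n = 6) in MNase-seq and 0.624 ± 0.132 (SD, n = 7) in ChEC, a difference of 0.682 with no overlap (exact two-sided permutation test, p = 0.000583, the smallest that 1716 permutations can give). By base, 204 of the 288 were higher in every MNase-seq library than in every ChEC library, against 42.5% over all bases, and 0 were lower (10.2% over all bases). Both results rest on the total used for scaling. ChEC depth was concentrated right of the stretch, at 1.76 to 4.74 between it and the origin, and with the total taken outside the origin stretch the difference turned to -0.119 (exact permutation test, p = 0.175) and the count to 0, against 20.5% of all bases under that total, while 57 of the 288 (19.8%) were then lower in MNase-seq, against 38.4% of all bases. The assays were also run on different strains, so assay and strain cannot be told apart. Each MNase-seq library is a condition of its own, in G1 or G2. ChEC was all in G1, and its libraries of a genotype share a strain and perhaps a culture. The test treats these libraries as replicates, which they are not, so its p-value does not measure spread between cultures.

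The comparison of WT cells in G1 and G2 asks what changes when Mcm2-7 is on the origin, which it is in G1. The stretch was slightly lower in G1, at 1.30 against 1.48, a ratio of 0.879 (0.876 to 0.883). All 5 windows were lower in G1, from 0.815 between the elements to 0.901 in the Reb1 footprint. The spacer between the footprint and the origin went the other way, at 1.54 in G1 and 1.00 in G2. No base of the 288 differed by more than 1.5-fold, while 5.25% of all 2001 bases were higher and 7.55% lower by that measure.

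In *sir2* the same ratio was 0.939 (0.935 to 0.943), from levels of 1.34 in G1 and 1.43 in G2. The windows lay between 0.870 and 0.959, again all lower in G1, with 0.881 for the core element and 0.942 for the Reb1 footprint. No base passed 1.5-fold, against 4.0% higher and 0.0% lower over all bases. The library names give 7.5 U of nuclease for G1 and a smaller amount for G2, so the arrest cannot be told apart from the digestion in either genotype.

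At 37°, the restrictive temperature, *cdc6-1* cells had a deeper promoter and nearly the same Reb1 footprint as at 23°. From 23° to 37° the stretch went from 1.04 to 1.23, a ratio of 1.18 (1.17 to 1.19). The core element was 1.74 times (1.69 to 1.79), the bases between the elements 1.80 times (1.73 to 1.86) and the upstream element 1.499 times (1.48 to 1.52) as deep at 37°. The gap was 1.17 times and the Reb1 footprint 1.01 times as deep, and the latter turned to 0.979 with the total outside the origin stretch. The ratio was highest between the elements and declined from there to the footprint, and the spacer between the footprint and the origin, at 0.551, was lower at 37°.

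By base, 105 of the 288 (36.5%) were more than 1.5-fold higher at 37°, against 20.8% of all 2001 bases. They were all 28 bases of the core element, all 22 between the elements and 55 of the 96 of the upstream element, and none lay in the gap or the footprint. None of the 288 was lower by that measure, against 7.85% of all bases. The start of the 35S gene had a ratio of 1.06. Both libraries got 7.5 U of nuclease by their names, but temperature and time in alpha factor differed along with Cdc6 activity, and WT at these temperatures was not analysed here. The library at 23° was also the one with the fewest reads of the 6 and the lowest level in each window, so its part in the ratio was not tested.

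**Figure D4:**
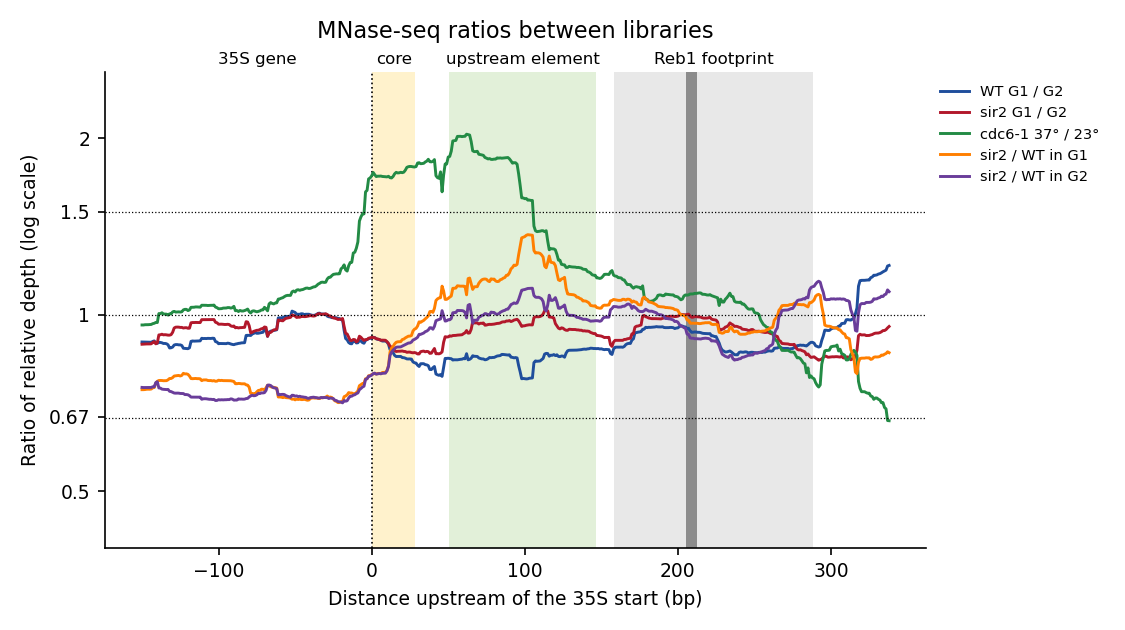
Ratio of relative depth between MNase-seq libraries (log axis) at each base against the distance upstream of the 35S start, with shading as in the profiles and dotted lines at 1 and at 1.5-fold either way. The line for *cdc6-1* passes 1.5 over the core element and part of the upstream element and comes back to about 1 in the Reb1 footprint, and the other 4 lines stay within 1.5-fold.

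Without Sir2 the stretch as a whole was close to WT, at 1.03 times (1.03 to 1.04) in G1 and 0.967 times (0.964 to 0.971) in G2. The core element was lower in *sir2* in both arrests, at 0.861 times (0.845 to 0.877) in G1 and 0.850 times (0.836 to 0.864) in G2. The upstream element was higher, at 1.16 times (1.15 to 1.17) in G1 and 1.02 times (1.01 to 1.03) in G2. The Reb1 footprint was at 0.999 times in G1, an interval of 0.993 to 1.005, and at 0.955 times in G2. The start of the 35S gene was at 0.737 times in G1 and 0.725 times in G2, so the core element lay between the lower gene and the rest of the stretch. No base of the 288 passed 1.5-fold in either arrest, against 32.4% higher and 5.45% lower in G1 and 25.0% higher and 4.8% lower in G2 over all bases. The direction for the stretch as a whole changed with the scaling in both arrests (0.974 in G1 and 1.03 in G2), while that for the core element did not.

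The ChEC comparison of *sir2* with *SIR2* asks whether another share of the interval's depth falls here without Sir2. It gives no cutting rate, since the total includes the origin. The stretch stood at 0.639 and 0.564 in the WT libraries and 0.369 in *sir2* of the FOB1 strains, and at 0.739 and 0.769 with *SIR2* and 0.644 and 0.648 in *sir2* with expanded rDNA. In each strain set the *sir2* libraries were below the *SIR2* libraries. The means were 0.554 ± 0.160 (SD, n = 3) and 0.678 ± 0.0941 (SD, n = 4), a difference of -0.124 that missed the threshold of 0.05 (exact two-sided permutation test within strain sets, p = 0.111). With the total taken outside the origin stretch it was -0.218 (exact permutation test, p = 0.0556, the smallest this design allows). The test treats libraries of 1 strain as replicates, so its p-values do not measure spread between cultures or strains. The difference is taken between means pooled over the strain sets, which do not hold the genotypes in equal shares. Within the FOB1 strains alone the difference was -0.232. Within the expanded set alone it was -0.108, from -0.0945 at 30 s to -0.122 at 60 s. Without the smaller WT library the pooled difference was -0.162. Without the single FOB1 *sir2* library it was -0.0317. The FOB1 WT libraries then have no *sir2* library to be set against, so this value mixes strain set with genotype.

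The Reb1 footprint was lower in the *sir2* libraries of both strain sets. The *sir2* level was 0.613 times that of *SIR2* in the FOB1 strains and 0.803 times in the expanded set, and no *SIR2* library overlapped a *sir2* library. In the core element the ratio was 0.355 in the FOB1 strains, at levels under 0.1, and 1.03 in the expanded set. The upstream element had ratios of 0.665 and 1.01. The start of the 35S gene stood at 0.102 in *sir2* against 0.238 and 0.229 in the FOB1 strains. With expanded rDNA it stood at 0.356 (30 s) and 0.267 (60 s) in *sir2* against 0.328 and 0.276. In the FOB1 strains the lower level was thus not particular to the footprint. By base, 63 of the 288 (21.9%) were lower in every *sir2* library than in every *SIR2* library, against 11.3% of all bases, and all 63 lay in the footprint. No base left of the footprint could be counted, since every expanded library was above every FOB1 library there. The spacer between the footprint and the origin, was also lower in *sir2*, at 2.25 against 4.36 and 4.74 in the FOB1 strains and at 1.81 and 1.76 against 2.62 and 2.54 with expanded rDNA. None of the 288 was higher without overlap, against 22.8% of all bases. Neither count was possible at the 200 of the 288 bases where every expanded library was above every FOB1 library. Over all bases the strain sets were apart at 36.4% (expanded higher) and 8.05% (expanded lower), so these shares do not compare the genotypes alone. With the total taken outside the origin stretch 40 of the 288 (13.9%) were lower in every *sir2* library, against 5.30% of all bases, and 197 could not be counted. Cutting by free nuclease was not tested, since no library of that kind was analysed here, and the calcium time of the FOB1 libraries is not settled. The source text gives 30 s for both genotypes, while the smaller of the WT libraries has 1m in its name and the other 2 names carry a tag that may or may not be a time.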

How the data were processed

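The deposited table holds coverage (signal) made by the authors: read depth at each of 2001 bases (458000 to 460000 of chromosome XII, sacCer3) in 28 libraries, from paired reads of 50 bases, without scaling to library size. The submitters' processing notes name GSNAP, Picard and bedtools, with no versions or roles. Libraries were grouped by the labels and the strain table. Of 28 columns 21 were used, and 7 were left out, 4 of *fob1* strains of unsettled *SIR2* status, 2 of a strain that could not be assigned and 1 outside the stated conditions.

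Each library was divided by its own mean depth. Windows were fixed as distances from annotated features. For each library the level of each window, its highest and lowest base and the largest base-to-base steps were taken. Ratios carry 95% log-normal counting intervals, tests are exact permutations, and bases were counted past 1.5-fold or without overlap. The region, windows and tests were chosen with earlier results of these data known. Other totals, background subtraction, trimmed limits and leaving out libraries were tried. The scripts were tested on simulated data (Python 3.11.15, numpy 2.4.6, pandas 2.3.3, matplotlib 3.10.9).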

Additional observations from a re-analysis of the deposited data

Results flagged for a closer look

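The MNase-seq ratio of *sir2* to WT had opposite directions in G1 and G2 in the stretch as a whole and in 2 of its windows. For the whole stretch it was 1.03 (G1) and 0.967 (G2). The values were 1.02 and 0.952 between the promoter elements, and 1.04 and 0.994 in the gap left of the Reb1 footprint. The opposition depended on the scaling. With the total outside the origin stretch both arrests were below 1 for the whole stretch (0.974 and 0.954), between the elements (0.959 and 0.939) and in the gap (0.981 and 0.980), and with the interval ended early both were above 1 (1.09 and 1.03, 1.07 and 1.01, and 1.10 and 1.06). Each value compares 1 library with 1 library, so the difference between the arrests was not tested.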

How the results depend on the processing

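The main limits are 1 library per MNase-seq condition and the choice of total. Counting intervals were narrow, but they count paired reads as independent and may be too narrow. Whether a value moved is judged against them. With the total outside the origin stretch, the ratios for the whole stretch were 0.953 (WT, G1 over G2), 0.973 (*sir2*, G1 over G2), 1.14 (*cdc6-1*, 37° over 23°), 0.974 (*sir2* over WT in G1, reversed) and 0.954 (in G2), the difference of MNase-seq and ChEC reversed to -0.119, and the counts of bases fell to 40 (ChEC *sir2* lower, 5.30% of all bases) and 0 (MNase-seq above ChEC, 20.5% of all bases). With the total outside the stretch itself they were, in the same order, 0.852, 0.924, 1.22, 1.04 and 0.959. With the lowest depth subtracted, 0.866 (WT), 1.20 (*cdc6-1*), 1.04 (*sir2* over WT in G1) and 0.963 (in G2) moved. With 20 bases left out at each end, 0.950 (*sir2*, G1 over G2), 1.20 (*cdc6-1*) and 1.04 (*sir2* over WT in G1) moved. Ending the interval at base 459800, chosen after seeing that the depth of the expanded-rDNA libraries falls to nearly 0 beyond it, gave 0.867, 0.918, 1.17, 1.09 and 1.03 (reversed), and with the lowest depth also subtracted 0.854, 0.914, 1.19, 1.11 and 1.03 (reversed). The cause was not tested.

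Of 125 alternatives for the ratios of single windows, 39 stayed within the counting interval, 73 moved and 13 changed direction. The latter were, outside the origin stretch, the Reb1 footprint of *cdc6-1* (0.979) and, for *sir2* over WT in G1, the bases between the elements (0.959) and the gap (0.981). The Reb1 footprint for *sir2* over WT in G1 went to 1.01 with the total outside the stretch or with the lowest depth subtracted, to 1.05 with the interval ended early and to 1.07 with both. In G2 the early end, without and with subtraction, gave 1.01 and 1.02 between the elements, 1.06 and 1.06 in the gap and 1.02 and 1.02 in the footprint. Leaving out each library in turn, the ChEC difference of *sir2* and *SIR2* lay between -0.171 and -0.0317 (exact permutation p from 0.111 to 1) and the difference of MNase-seq and ChEC between 0.639 and 0.734 (exact permutation p from 0.00126 to 0.00216). The -0.0317 came without the FOB1 *sir2* library, where the FOB1 WT libraries have no *sir2* library of their set, so it mixes strain set with genotype. The leave-one-out p-values of both differences do not measure spread between cultures, since libraries that are not replicates are treated as such. No paired analysis was possible because the labels give the groups compared no shared replicate numbers tied to columns. The calcium times in the names match the expanded-rDNA libraries of both genotypes in 2 pairs, whose differences (-0.0945 at 30 s and -0.122 at 60 s) are values with no test.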
